A study of Rattus norvegicus with 35 samples.

Results

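Olfactory receptors (ORs) are the odour-binding membrane proteins of the olfactory sensory neurons. The genes whose probes lie on rat chromosome 10 were described here, over age and by position. They were taken as all probes of the Agilent whole rat genome array with a gene name beginning with Olr, or with an olfactory receptor named in the description, whose coordinates fall on chromosome 10. This rule gave 111 probes, each for a different gene, of 1136 OR probes and 41012 probes in all. A further 1025 OR probes lie elsewhere.

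The tissue was the olfactory epithelium of Brown Norway rats, dissected from untreated animals, on 35 arrays from 27 rats. Newborn rats were 19 pups aged 3 to 5 days, sex not known, from litters L1 (4 pups) and L2, L3 and L4 (5 pups each), with 1 array each. Adult rats were 4 males of 9 weeks and old rats 4 males of 22 months, each with an array for the left and an array for the right epithelium. The study used them to ask how RNA levels differ with age and between animals. Litter mates share a mother, and whole dissected epithelium holds sensory neurons, basal, sustentacular and respiratory cells together.

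An OR is a G protein-coupled receptor in the cilia of a sensory neuron, where it activates the olfactory G protein, adenylyl cyclase and a cyclic nucleotide-gated channel. Each mature neuron is known to transcribe a single OR gene, mostly from a single allele. The signal of an OR probe in whole epithelium therefore sums over the few neurons that chose that gene, and fewer such neurons and less RNA in each cannot be told apart. OR genes sit in clusters, and near relatives arisen by duplication tend to be neighbours.

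The 111 probes fell into 6 blocks along the chromosome when a gap of over 1 Mb started a new block. Positions are those of the 60-base probes and follow the array files, which use build rn3. Block 1 ran from Olr1356 to Olr1382, chr10:11951390-12752494, with 18 probes. Block 2 ran from Olr1383 to Olr1401, chr10:34221251-35001006, with 14 probes, and block 3 from Olr1404 to Olr1411, chr10:36545090-36635761, with 6. Block 4 ran from Olr1413 to the probe of XM_220516, chr10:44109611-45938303, with 36 probes, and block 5 from Olr1467 to Olr1519, chr10:60259305-61647093, with 34. Block 6 held the 3 probes of Olr1521, Olr1522 and Olr1523 at chr10:76200708-76215726. With a gap of 0.5 Mb there were 7 blocks, since the last 3 probes of block 4 then stood apart.

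Of the 111 genes, 110 were matched by accession to a protein-coding gene in the RefSeq table of assembly GRCr8, which was used for names only, and 100 of those have a symbol that gives their OR family. The family went with the block. Block 1 held 17 genes of family 1 and 1 of family 2, block 2 held 14 of family 2, and block 3 held 6 of family 1. Block 4 held 27 genes of family 2, 2 of family 9 and 1 each of families 5 and 11. Block 5 held 25 genes of family 1 and 4 of family 3, and block 6 held 2 of family 4. The blocks also held 59 probes of other genes, 47 of them in block 4.

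Relatives share sequence, so the probes themselves bear on how far the genes were measured apart. The closest other OR probe on the array differed by a median of 22 edits in 60 bases, and 6 of the 111 probes had one within 12 edits. The 2 closest pairs are shown because their probes may share target RNA. Capitals mark the bases that differ between the members of a pair. Olr1409 (chr10:36610333-36610392, plus strand) and Olr1410 (chr10:36622217-36622276, plus strand) differ at 6 bases, and Olr1511 (chr10:61433167-61433226, plus strand) and Olr1512 (chr10:61457681-61457740, plus strand) at 9.
Olr1409: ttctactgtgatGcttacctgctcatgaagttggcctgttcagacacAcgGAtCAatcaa
Olr1410: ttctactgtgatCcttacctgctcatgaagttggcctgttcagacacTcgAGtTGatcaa
Olr1511: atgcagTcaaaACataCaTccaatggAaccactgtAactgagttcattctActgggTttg
Olr1512: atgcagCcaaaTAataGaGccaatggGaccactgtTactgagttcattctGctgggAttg

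Probes of 4 further genes are shown for genes whose age pattern is described here, to let a reader judge how specific each is. Olr1383 (Or2v2c, chr10:34221251-34221310, minus strand), Olr1395 (Or2y1i, chr10:34887755-34887814, plus strand) and Olr1422 (Or2t48d, chr10:44337416-44337475, minus strand) were measured in adult and old rats but scarcely in pups. Olr1369 (Or1f20d, chr10:12376542-12376601, minus strand) was higher in pups. Capitals mark bases with no match in an alignment to the closest other OR probe, which was Olr1439 for Olr1383, Olr1592 for Olr1395, Olr1428 for Olr1422 and Olr528 for Olr1369, at 21, 24, 14 and 21 edits.
Olr1383: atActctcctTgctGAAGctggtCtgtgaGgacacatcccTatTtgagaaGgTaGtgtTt
Olr1395: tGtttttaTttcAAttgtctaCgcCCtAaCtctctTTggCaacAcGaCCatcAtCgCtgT
Olr1422: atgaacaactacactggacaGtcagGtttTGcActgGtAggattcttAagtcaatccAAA
Olr1369: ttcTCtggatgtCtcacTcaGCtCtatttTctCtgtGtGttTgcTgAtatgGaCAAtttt

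The arrays were alike in overall detection. Between 24484 and 28361 of the 41012 probes were above background on a newborn array, 25273 to 28020 on an adult and 25275 to 27426 on an old one. Group and batch did overlap. The adult arrays alone were scanned on 2 days of their own, with an earlier software release, and had the highest median intensities (82.4 to 164, against 42.1 to 87.8 for pups and 37.2 to 55.3 for old rats). L1 and old rats shared a scan day, and the other litters followed on 2 later days. Levels are signals divided by the median signal of the array. They compare 1 probe between rats, never different probes. Adult rats shared no scan day or software release with pups or old rats, so age and batch cannot be told apart in any comparison with adults.

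More chromosome 10 OR probes were above background in adult and old rats than in pups. Above background means a signal that is positive and significant, well above the local background, uniform and not saturated. The mean was 59.1 ± 5.08 of 111 probes for pups (SD over 4 litters), 77.5 ± 3.63 for adults (SD, n = 4 rats) and 80.6 ± 0.629 for old rats (SD, n = 4 rats). The lowest, median and highest newborn array had 46, 58 and 76. Averaged over both arrays, the adult rats had 77.5, 79, 81 and 72.5 and the old rats 80.5, 81.5, 80.5 and 80. The highest pup, of L1, thus lay above the lowest adult rat, and adult and old rats overlapped. The 2 arrays of an adult rat differed by 7 to 23 probes and those of an old rat by 1 to 16. The litter means were 65 (L1), 52.6 (L2), 59.2 (L3) and 59.6 (L4). As a share of all members the means were 53.2% for pups, 69.8% for adults and 72.6% for old rats, and OR probes elsewhere gave 46.4%, 61.1% and 64.0%.

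**Figure D1:**
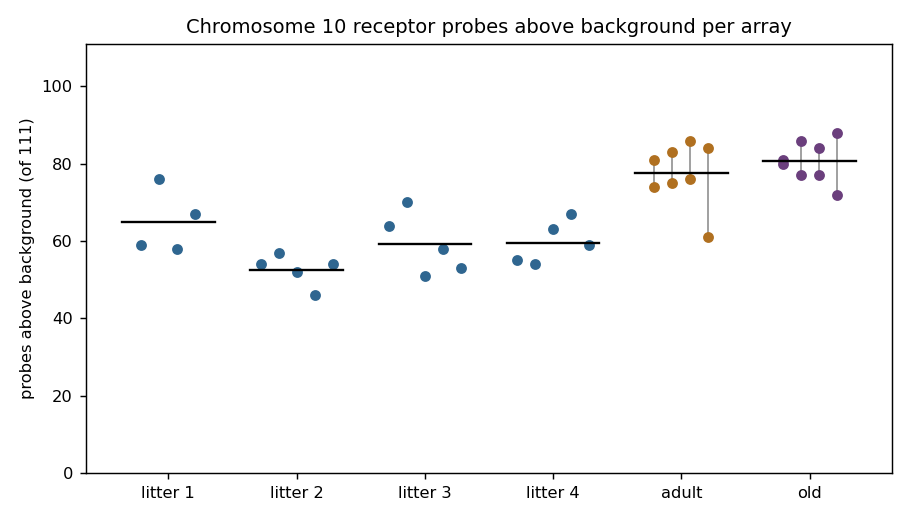
Number of the 111 OR probes of chromosome 10 above background on each array (y axis), by litter and age group (x axis). A point is an array, a grey line joins the 2 arrays of a rat and a black bar is the mean over rats. Pups run from 46 to 76 and old rats from 72 to 88.

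A gene was called expressed in a litter with 3 or more arrays above background, and in adult or old rats with 6 or more of 8. Adult rats expressed 76 members and old rats 74 (68% and 67%). Of OR probes elsewhere they expressed 57% and 60%, and of all probes 64% and 63%. L1 expressed 59, L2 50, L3 58 and L4 59 (53%, 45%, 52% and 53%). The litters expressed 45%, 40%, 50% and 47% of OR probes elsewhere and 67%, 63%, 65% and 65% of all probes. A core of 47 members was expressed in every litter and in adult and old rats, and 38 were above background on all 35 arrays. As a share these 47 were 42.3% of members, against 33.7% of OR probes elsewhere. The 38 were 34.2%, against 20.5% elsewhere. Of all 41012 probes, 23668 were expressed in every group and 21519 were above background on every array. A further 23 members (20.7%, against 19.5% elsewhere) were expressed in adult and old rats but not in every litter. Of those, 9 (8.11% of members, against 8% elsewhere) were expressed in no litter: Olr1383, Olr1395, Olr1396, Olr1421, Olr1422, Olr1435, Olr1448, Olr1482 and Olr1493. Nothing matched the opposite pattern: 0 members were expressed in 3 litters or more and in neither older group, against 15 of the 1025 OR probes elsewhere. Olr1392 and Olr1498 were expressed in 1 litter or more and in neither older group (1.80% of members, against 2.83% of OR probes elsewhere). A last 11 members (9.91%, against 13.7% of OR probes elsewhere) were above background on no array. They were Olr1364, Olr1365, Olr1374, Olr1380, Olr1407, Olr1474, Olr1485, Olr1486, Olr1490, Olr1511 and Olr1512.

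**Figure D2:**
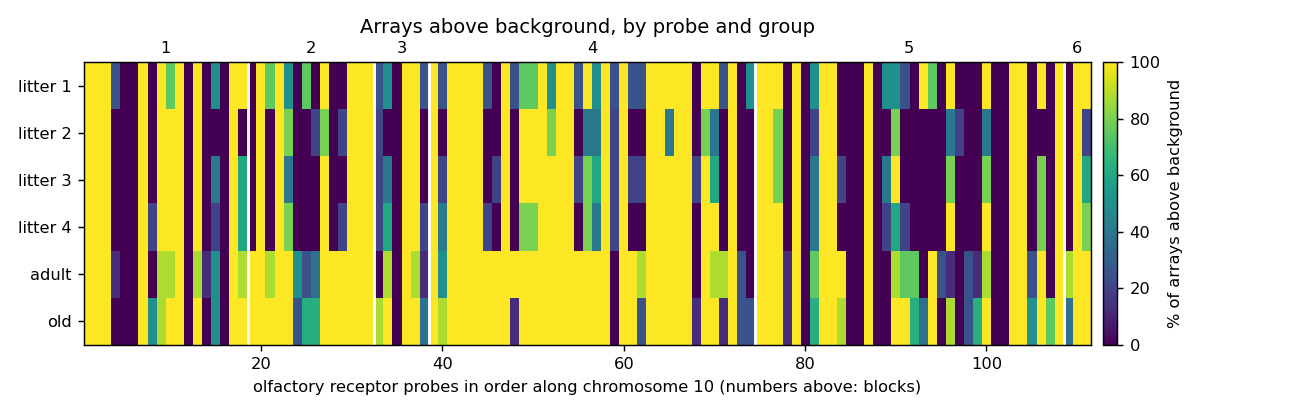
Share of the arrays of each group (rows, colour scale in %) on which each of the 111 OR probes was above background, with probes in order along chromosome 10 (x axis) and white lines between the 6 blocks. Blocks 2 and 4 hold probes that are dark in the litters and bright in adult and old rats.

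Detection differed along the chromosome. In block 2 a mean of 50.7% of probes was above background in pups, 85.7% in adults and 89.3% in old rats. In block 4 the shares were 65.6%, 87.1% and 83.3%. Block 1 hardly moved with age, at 54.9%, 56.9% and 60.4%. Block 5 had the lowest share in pups, 41.7%, then 53.3% in adults and 60.7% in old rats. In block 3 the shares were 45.0%, 47.9% and 70.8% of only 6 probes, and in block 6 55.0%, 95.8% and 79.2% of 3. Of the 11 members never above background, 4 were in block 1, 1 in block 3 and 6 in block 5. The differences between blocks were not tested.

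**Figure D3:**
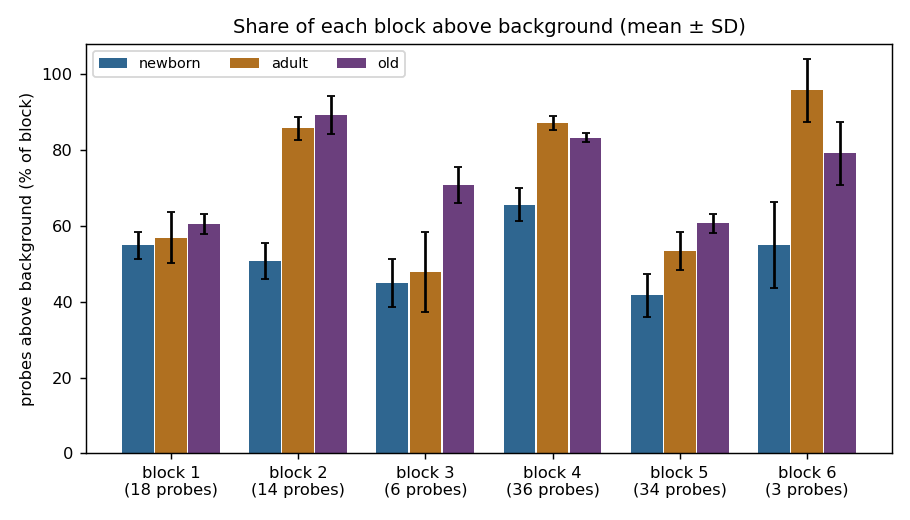
Percent of the probes of each block above background (y axis, from 0), by block (x axis) and age (colour). Bars are means over 4 litters, 4 adult rats or 4 old rats, with SD as error bars. Block 1 changes least with age, from 54.9% in pups to 60.4% in old rats.

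Most of the measured change with age was a lower level in pups. Against adult rats, 57 members were lower in newborn rats and 6 higher at an adjusted p under 0.01 (limma over all 41012 probes, Benjamini-Hochberg). The same threshold called 19.6% of all probes lower and 27.3% higher, and 41.1% and 6.83% of the OR probes elsewhere. The median log2 change was -1.0 over the members, 0.10 over all probes and -0.78 over OR probes elsewhere. Called decreases ran from -5.09 to -0.48 on the log2 scale, and 45 members had every pup below every adult rat (10.6% of all probes did). For 3 members every pup was above every adult rat (16% of all probes).

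Against old rats the pups were lower for 76 members and higher for 2, where 22.7% and 20.6% of all probes were called lower and higher. For OR probes elsewhere the shares were 60.8% and 4.29%. The median change was -1.63 on the log2 scale, against -0.04 for all probes and -1.46 for OR probes elsewhere. Every pup was below every old rat for 64 members (11.9% of all probes) and above for 0 (10.3%). Both comparisons called 54 members lower in pups, 3 were called against adult rats alone and 22 against old rats alone. These comparisons share the pups, so they are not separate support for each other. L1 and old rats were scanned on the same day, and within that day 64 members were lower in L1 and 0 higher (17.1% and 12% of all probes), by limma, with 79 and 2 at an unadjusted p under 0.05. Among the 38 members above background on every array, 26 were lower and 1 higher in pups than in adults, and 33 lower and 0 higher than in old rats. Of all probes that passed this filter, 25.8% and 41.9% were lower and higher than in adults and 31.5% and 29.6% than in old rats.

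The lower level of OR probes in pups stood beside a lower level of mature sensory neuron genes. Of 10 markers of mature neurons, 8 were matched to a probe, among them Omp (olfactory marker protein), Gnal (the olfactory G protein subunit), Adcy3 (its adenylyl cyclase) and Cnga2 (a subunit of the channel). All 8 were lower in pups than in adult rats (median log2 change -2.24) and than in old rats (-2.89). Their summed level was 218 to 480 in pups, 1298 to 1748 in adults and 1975 to 2722 in old rats, and none was at 0. Such a sum follows mostly its brightest probes, here Gnal, Cnga2 and Stoml3, another of the 8. Omp was 21.5 to 52.8 in pups, 159 to 229 in adults and 260 to 363 in old rats. Of 8 markers of immature neurons, such as Gap43, a growth cone protein, 6 were higher in pups than in adults and 8 higher than in old rats. Their summed level was 1564 to 3131 in pups, 1130 to 1496 in adults and 895 to 1158 in old rats. Of 5 globose basal cell markers, 4 were higher and 1 lower in pups than in adults. No horizontal basal or ciliated respiratory cell marker passed the test in either comparison. Sustentacular markers gave 1 higher and 3 lower of 6 against adults and 6 lower against old rats. The part of these cell types in the OR changes was not tested.

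Of the odour signalling genes, a list that shares most of its members with the mature neuron markers, 9 of 10 measured were lower in pups than in adults and 10 of 10 than in old rats. Rtp1, which helps ORs reach the cell surface, was lower in pups than in adult rats (log2 change -1.85) and than in old rats (-1.56). Rtp2, a relative of Rtp1, was lower in pups than in old rats (-1.52) and did not pass against adults (0.15). It was above background on only 3 of 19 newborn, 0 of 8 adult and 6 of 8 old arrays. Both changes of Rtp2 thus rest on signals near background. Reep1, another export protein, had changes of 0.13 and -0.20 that did not pass the test. Of 6 measured genes tied to OR choice, Ebf2 was lower in pups than in adults (-1.31), Atf5 higher (0.82), and the others, such as the transcription factor Lhx2 (-0.07) and its cofactor Ldb1 (0.05), did not pass. Against old rats only Ebf3 passed, higher in pups (0.54), while Ebf2 (-0.51) and Atf5 (-0.33) did not.

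The 6 members with the largest fitted decreases in pups at the floor of 0.01, among those with every pup below every adult or old rat, were Olr1396 of block 2, Olr1421, Olr1422, Olr1425 and Olr1448 of block 4 and Olr1496 of block 5. All but Olr1496 are of family 2. Their order rests on newborn signals near background for all but Olr1425, and with levels floored at the lowest signal well above background Olr1496 changed by only -0.81 on the log2 scale against adults. Olr1422 had levels of 0.01, 0.059 and 0.235 (lowest, median and highest pup), of 2.27, 2.01, 1.82 and 2.05 in the adults and of 1.98, 1.36, 1.59 and 3.04 in old rats. The groups of pups and older rats did not overlap. Only 1 of 19 newborn arrays was above background for Olr1422, against all 16 arrays of older rats, and the log2 change was -5.09 ± 0.669 (SE) against adults and -4.99 ± 0.669 against old rats (adjusted p 5.46e-07 and 9.50e-07, limma). Adult and old rats overlapped, and their difference was 0.10 ± 0.859 (adjusted p 0.96). The newborn signal of Olr1422 lay near background, so the size of its change depended on how low signals were treated. It was -3.30 against adults with levels floored at the lowest signal well above background, and -0.97 with normexp background correction, which adds an offset to every signal.

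Olr1421 (Or2t47e), the neighbour of Olr1422, behaved alike. Pups had 0.0114, 0.134 and 0.302, the adults 1.81, 1.63, 1.5 and 1.64 and the old rats 2.01, 2.15, 1.81 and 3.08, with no overlap of pups and older rats. The log2 change was -3.91 ± 0.543 against adults and -4.34 ± 0.543 against old rats, and -0.74 and -1.01 with normexp. Olr1425 (Or2t47) was bright enough to be above background in 17 of 19 pups. Its pups had 0.173, 1.79 and 3.14, its adults 16.8, 14.8, 14.8 and 14.7 and its old rats 15.8, 10.5, 12.1 and 18.6. It was 12.8-fold lower in pups than in adults and 11.7-fold lower than in old rats, and with normexp its log2 change was still -2.61 and -2.15.

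The stretch was not uniform. Olr1423, which lies between Olr1422 and Olr1425, was above background on every array and was lower in pups by only 1.58-fold than in adults and 2.11-fold than in old rats. Olr1424, next to it, was above background on all 8 adult arrays but on 1 of 8 old and 1 of 19 newborn arrays. Its levels were 0.428, 0.373, 0.715 and 0.474 in adults and 0.094, 0.063, 0.141 and 0.367 in old rats. The adult rats all lay above the old ones, but the difference of 1.87 ± 0.844 on the log2 scale did not pass the test (adjusted p 0.08). Olr1423, Olr1424 and Olr1428 were chosen after their values were seen. Olr1428, whose probe is the closest to that of Olr1422, was 7.65-fold lower in pups than in adults.

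Olr1448 (Or2ak5), further along block 4, had 0.0666, 0.147 and 0.294 in pups, 1.25, 1.4, 1.5 and 1.22 in adults and 2.35, 2.72, 2.35 and 3.4 in old rats. The 3 ages did not overlap. It was above background on 2 of 19 newborn arrays, and the log2 change was -3.25 ± 0.251 against adults and -4.25 ± 0.251 against old rats (adjusted p 8.02e-11 and 1.26e-12, limma). Against adults it was -0.64 with normexp. Between adult and old rats it was -1.0 ± 0.322, with an adjusted p of 0.0144.

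Block 2 held the 2 members well above background on no newborn array and expressed in both older groups. Olr1395 had 0.01, 0.113 and 0.186 in pups, 0.899, 0.717, 0.894 and 0.774 in adults and 1.12, 0.911, 0.787 and 0.972 in old rats. Since the newborn signal was not well above background, the difference is a bound: at least 4.02-fold higher in adults and at least 4.63-fold higher in old rats. This bound sets the mean of the bright group against the lowest signal well above background on each newborn array, or the probe's own signal where that was higher. It holds only for signals scaled to the array median. With normexp the log2 changes of Olr1395 in pups were -0.45 against adults and -0.43 against old rats. Olr1383 had 0.01, 0.0898 and 0.135 in pups, 0.654, 0.568, 0.661 and 0.652 in adults and 0.78, 0.76, 0.736 and 0.923 in old rats. It was at least 3.15-fold higher in adults and at least 3.97-fold higher in old rats by the same bound. With normexp its log2 changes in pups were -0.36 and -0.46. Of 14 other ways of processing, 1 lost its call against adults. Olr1396 (Or2y1), next to Olr1395, was above background in 2 pups, with newborn levels from 0.01 to 0.417 against 0.693 to 0.904 in adults. Its fitted log2 change against adults was -3.44, and -1.94 with the higher floor and -0.42 with normexp.

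Olr1496 (Or1e31) in block 5 had a large fitted change but a small bound. Pups had 0.01, 0.01 and 0.0411, adults 0.225, 0.321, 0.409 and 0.496 and old rats 0.372, 0.444, 0.376 and 0.417. It was well above background on no newborn array, on 6 of 8 adult arrays and on 5 of 8 old arrays. It was at least 1.73-fold higher in adults and at least 2.0-fold higher in old rats. With normexp its log2 changes in pups were -0.26 and -0.23. Low signals matter for other members too. Of the 57 members called lower in pups than in adults, 48 were well above background on at least 1 array of both groups, 7 on adult arrays alone and 2 on none (Olr1380 and Olr1485). Of those 48, 26 were so on all 19 newborn arrays, 13 on some and 9 on only 1 or 2, among them Olr1422 and Olr1421. Of the 76 called lower than in old rats, 62 were well above background on at least 1 array of both groups, 11 on old arrays alone and 3 on none (Olr1380, Olr1485 and Olr1500). Of those 62, 34 were so on all newborn arrays, 19 on some and 9 on only 1 or 2.

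The study's primer genes in block 2 were measured on every array. Olr1401 (Or2y11) at the end of block 2 was above background on every array, with 2.63, 4.56 and 5.7 in pups, 10.1, 9.94, 11.5 and 8.69 in adults and 18.2, 18.6, 16.7 and 20.4 in old rats. The ages did not overlap, and pups were 2.41-fold lower than adults and 4.43-fold lower than old rats. Olr1386 (Or2v1) had 1.37, 2.86 and 3.81 in pups, 6.9, 5.97, 7.01 and 5.89 in adults and 10.2, 10.8, 9.8 and 14.5 in old rats, again with no overlap. Olr1356 (Or2c1), the first probe of block 1 and its only family 2 gene, was 2.40-fold lower in pups than in adults (0.917 to 3.02 against 3.38 to 4.26). Of the other 17 members of block 1, 2 were lower in pups than in adults, and 1 of those was Olr1380, above background on no array.

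**Figure D4:**
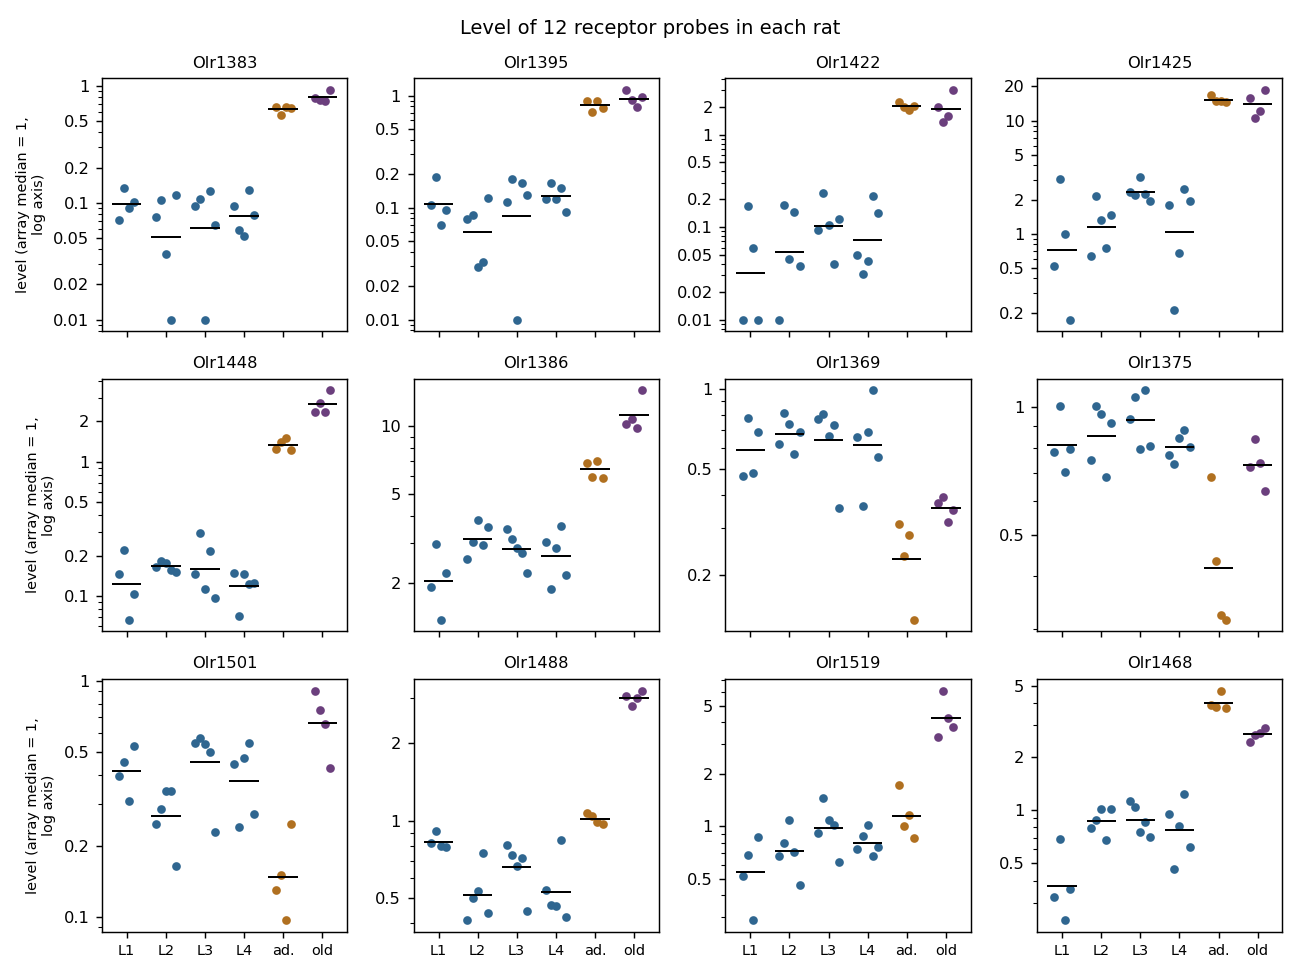
Level of 12 OR probes in each of the 27 rats, as a multiple of the array median (log y axis, a scale for each probe), by litter and age (x axis, ad. for adult). Points are rats and bars are geometric means. Pups sit below older rats for Olr1383, Olr1395, Olr1422, Olr1425, Olr1448 and Olr1386, and above adults for Olr1369.

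Few members were higher in pups. Against adults these were Olr1366, Olr1369, Olr1375, Olr1404, Olr1491 and Olr1501, 3 in block 1, 1 in block 3 and 2 in block 5, all of family 1. Olr1369 had 0.355, 0.686 and 0.988 in pups, 0.311, 0.235, 0.283 and 0.136 in adults and 0.373, 0.391, 0.315 and 0.349 in old rats. Every pup was above every adult rat, and the lowest pup overlapped the old rats. The log2 change was 1.46 ± 0.223 against adults and 0.82 ± 0.223 against old rats (adjusted p 5.07e-06 and 0.00311, limma). Leaving out old rat 19 (adjusted p 0.0161) or 20 (0.0112) ended the call against old rats. It was also lost within the shared scan day (0.0208). Of 16 other ways of processing, that one included, 5 lost it.

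Olr1375 (Or1f26) was 2.04-fold higher in pups than in adults, with 0.684, 0.809 and 1.09 in pups and 0.684, 0.434, 0.325 and 0.316 in adults. Old rats had 0.722, 0.838, 0.736 and 0.635, a change of 0.22 ± 0.148 against pups that did not pass. Olr1491 (Or1e25) was above background on 5 newborn arrays and on none of older rats. It was at least 1.06-fold higher in pups than in adults, and against old rats no fold can be given. Leaving out old rat 20 ended the call against old rats (adjusted p 0.0129, limma). Of 15 other ways of processing, 8 lost it, among them the fit within the shared scan day (adjusted p 0.0281, limma). Olr1366 was 1.74-fold higher in pups than in adults, with 0.670, 1.13 and 1.91 in pups against 0.769, 0.729, 0.640 and 0.480. It is named after its values were seen. Olr1501 (Or1e1e) was above background on 15 newborn arrays, 1 adult and 7 old arrays, with 0.164, 0.395 and 0.571 in pups, 0.13, 0.151, 0.0964 and 0.248 in adults and 0.907, 0.754, 0.654 and 0.427 in old rats. Every adult rat was below every old rat for Olr1501. With only 1 adult array above background, the size of that difference depended on the treatment of low signals, at -2.17 on the log2 scale, -1.67 with the higher floor and -0.33 with normexp.

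The calls were counted by position and by family. In block 2, 11 of 14 members were lower in pups than in adults and 13 lower than in old rats, with none higher. In block 4 the counts were 26 and 28 of 36, with none higher. In block 5 they were 15 and 23 of 34, with 2 and 1 higher. In block 1 they were 3 and 6 of 18, with 3 and 1 higher, in block 3 0 and 3 of 6, with 1 and 0 higher, and in block 6 2 and 3 of 3. The median log2 change against adults was -2.07 in block 2, -1.24 in block 4, -0.86 in block 5, -1.02 in block 6, -0.18 in block 1 and -0.11 in block 3. Block 3 gave 0 lower calls by limma, and its Olr1407 was above background on no array. By family, 32 of 42 family 2 genes and 15 of 48 family 1 genes were lower in pups than in adults, with 0 and 6 higher. Family 2 lay almost wholly in blocks 2 and 4. Family 1 was spread over blocks 1, 3 and 5, where 2 of 17, 0 of 6 and 13 of 25 of its genes were lower in pups than in adults. The differences between blocks and between families were not tested.

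**Figure D5:**
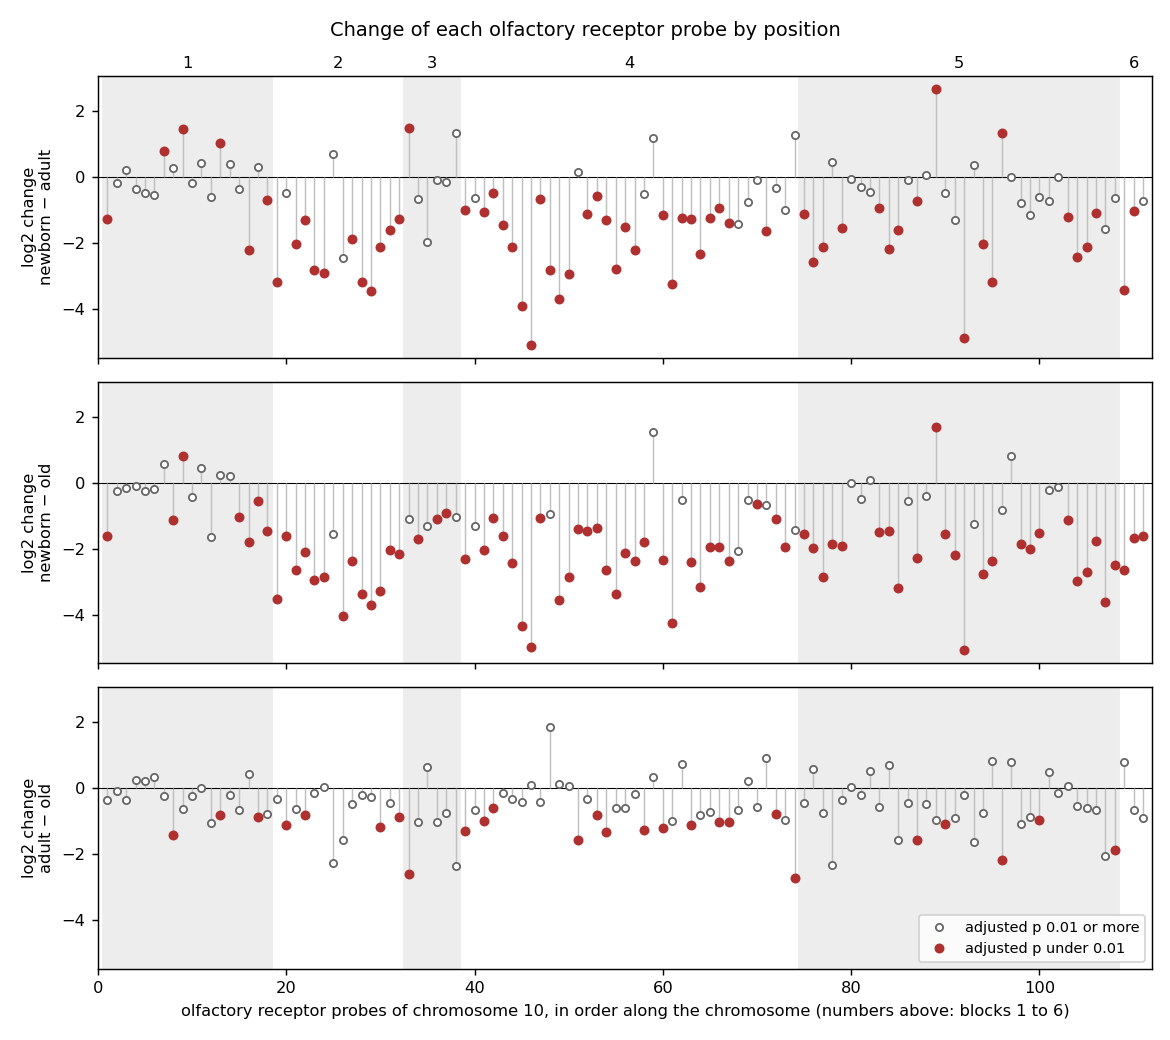
Log2 change of each of the 111 OR probes (y axis) in order along chromosome 10 (x axis) for newborn minus adult, newborn minus old and adult minus old. Filled points have an adjusted p under 0.01, and shading and numbers mark the 6 blocks. Most filled points lie below 0 in each panel, and block 2 holds none above 0.

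Across the 105 pairs of neighbours within a block, the log2 changes of a probe and the next one had a Pearson correlation of 0.27 against adults and 0.36 against old rats. For adult minus old it was -0.01. This is a description only, since all probes share the same arrays and neighbours share family and sequence. Probe GC content ran from 35% to 55%, with a median of 43.3%, and correlated at 0.22 with the change against adults and 0.09 with that against old rats. Probes with more GC were above background more often, 71.5% of 53 in pups against 36.6% of the 58 at or below the median, and 83.0% against 57.8% in adults. By strand, 30 of 53 plus-strand and 27 of 58 minus-strand members were lower in pups than in adults. Of the 59 other genes' probes inside the blocks, 24 were higher and 9 lower in pups than in adults, and 12 higher and 9 lower than in old rats. Block 4 held 22 of the 24. In block 2, 3 of 4 such probes were lower in pups than in adults and 1 higher, and the 1 in block 3 was lower.

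The pair with the most similar probes moved alike with age, though not in every rat. Olr1409 had 0.613, 1.31 and 3.04 in pups, 1.95, 1.23, 1.32 and 0.743 in adults and 2.1, 3.08, 2.54 and 2.5 in old rats. Olr1410 had 0.381, 0.832 and 1.32, then 1.28, 0.736, 0.97 and 0.567, then 1.17, 1.79, 1.48 and 1.39. The highest pup for Olr1409, L2 rat 21 at 3.04, had 0.78 for Olr1410, below the newborn median of that probe. Both were lower in pups than in old rats (log2 changes of -1.10 and -0.91) and neither passed against adults (-0.07 and -0.15). For L1 against old rats within the shared scan day the changes were -1.43 and -1.24. There neither passed (adjusted p 0.0134 and 0.0278, limma). Both pairs were picked for their sequence. How much of either signal is shared between the 2 RNAs was not tested. Olr1511 and Olr1512 were above background on no array.

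Other OR chromosomes gave a similar direction with different shares. Against adults, 34.6% of 272 OR probes on chromosome 1 were lower in pups, 50.9% of 287 on chromosome 3, 43.3% of 97 on chromosome 7 and 14.8% of 149 on chromosome 8, where chromosome 10 had 51.4%. Against old rats the shares were 62.1%, 66.2%, 47.4% and 42.3%, and 68.5% on chromosome 10. The differences between chromosomes were not tested.

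Between adult and old rats, 26 members were lower in adults and 0 higher by limma, with 49 and 4 at an unadjusted p under 0.05. The shares of all probes were 20.9% lower and 11.6% higher, and of OR probes elsewhere 20% and 2.54%, so the share of members called lower, 23.4%, was near that of all probes. The median log2 change was -0.61 over the members, -0.14 over all probes and -0.58 over OR probes elsewhere. Every adult was below every old rat for 52 members (27.9% of all probes) and above for 6 (15.7%). Of the 38 members above background on every array, 19 were lower and 0 higher in adults (33.5% and 15.5% of all such probes). Scaling to the 75th percentile gave 32 lower and 4 higher, and normexp background correction with quantile scaling 40 and 5. Here too age and batch cannot be told apart.

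Calls spanned 5 of the 6 blocks, with 13 of 36 in block 4, 5 of 34 in block 5, 4 of 14 in block 2, 3 of 18 in block 1 and 1 of 6 in block 3. Olr1488 (Or1e27) was lower in adults than in old rats by 2.95-fold, with 1.08, 1.04, 0.992 and 0.971 against 3.05, 2.81, 3.00 and 3.21 (log2 change -1.56 ± 0.195, adjusted p 6.95e-07, limma). Pups had 0.41, 0.667 and 0.913, so the 3 ages did not overlap. Olr1519 (Or1d2), the last probe of block 5, had 1.74, 1.0, 1.17 and 0.854 in adults and 3.3, 6.1, 4.25 and 3.74 in old rats, 3.68-fold apart. Olr1431 (Or2ab1) had 1.26, 0.62, 0.788 and 0.385 in adults, inside the newborn range of 0.44 to 1.1 for 2 of 4 rats, and 1.6, 2.53, 1.84 and 2.37 in old rats.

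Olr1404 (Or1ad6), the first probe of block 3, was above background on 0 of 8 adult arrays, 7 of 8 old and 4 of 19 newborn arrays. Its adults had 0.0422, 0.0887, 0.108 and 0.0303 and its old rats 0.396, 0.31, 0.288 and 0.492, at least 1.85-fold higher in old rats. Of 14 other ways of processing, 3 lost that call. Its log2 change for adult against old, -2.62 as fitted, was -0.91 with the higher floor and -0.23 with normexp. The call between pups and adults, with pups higher, was lost without adult rat 13 (adjusted p 0.0209) or 16 (0.0334), and no fold can be given. It was also lost in 7 of 14 other ways of processing. The log2 change between pups and adults was 0.22 with the higher floor and 0.10 with normexp. The probe of XM_220516, the last of block 4, was at least 1.17-fold higher in old than in adult rats, and was above background on 2 of 8 old and 0 of 8 adult arrays. That call was lost without adult rat 13 or old rat 17, 18 or 19 (adjusted p 0.0105 to 0.0172). It was also lost in 5 of 14 other ways of processing. The log2 change, -2.72 as fitted, was -0.45 with the higher floor and -0.06 with normexp. Olr1368 (Or1f20e) was above background on 4 old and 0 adult arrays and at least 1.77-fold higher in old rats. Its log2 change, -1.42 as fitted, was -0.84 with the higher floor and -0.12 with normexp.

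The other members with study primers did not all follow the same lines. Olr1431 was not lower in pups than in adults (log2 change 0.16), and Olr1407 was above background on no array. Olr1384 (Or2v2) had 0.37, 0.595 and 1.06 in pups, 1.08, 0.977, 0.857 and 0.822 in adults and 2.22, 1.97, 2.02 and 1.88 in old rats. It was 3.06-fold lower in pups than in old rats, while its change of -0.49 ± 0.201 against adults did not pass. Olr1415 (Or2av9) was 2.08-fold lower in pups than in adults and 4.14-fold lower than in old rats, with newborn levels from 0.51 to 1.84 against 1.62 to 2.14 and 2.54 to 4.36. At the ends of blocks, Olr1382 was 1.63-fold lower in pups than in adults, Olr1413 1.99-fold and Olr1467 2.16-fold, each with pups and adults overlapping. The call for Olr1382 against adults was lost without adult rat 13, 14 or 15 (adjusted p 0.014 to 0.03), and that for Olr1413 without rat 13 (0.0113).

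Between litters 7 members differed (adjusted p under 0.01, limma F test over 4 litters), where 23.6% of all probes and 4.78% of OR probes elsewhere did. Olr1482 (Or1e16) was lowest in L1, where pups had 0.0673, 0.0754 and 0.131 (lowest, median, highest). The other litters had 0.151, 0.223 and 0.241 (L2), 0.148, 0.217 and 0.26 (L3) and 0.115, 0.181 and 0.213 (L4), and the adjusted p was 0.000222. It was above background on 1 of 19 newborn arrays, so these values lie low in the range of the array. Olr1368 ran from 0.093 to 0.115 in L2 and from 0.216 to 0.278 in L3 (adjusted p 0.000336), also with 1 newborn array above background.

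Olr1468 (Or1e18) was above background on every array and lowest in L1, at 0.239, 0.34 and 0.688. The other litters had 0.678, 0.876 and 1.01 (L2), 0.708, 0.853 and 1.13 (L3) and 0.467, 0.811 and 1.23 (L4), and the adjusted p was 0.00108. Adult rats had 3.77 to 4.71 and old rats 2.42 to 2.89, so pups were 5.91-fold below adults with no overlap. With the slide as a random block 2 members were called between litters, with the scan day 3, and without pup 11 of L1 3. Without L1 pup 9 or 12 there were 4, and without L4 pup 34 there were 12. L1 is the only litter on its scan day and slide, so litter and batch cannot be told apart for it.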

How the data were processed

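RNA of 35 olfactory epithelia was hybridised to 1-colour Agilent arrays. The authors scanned them with Agilent Feature Extraction, in an earlier release for adult arrays than for the rest, and deposited background-subtracted spot intensity values with quality flags, not normalized between arrays. Their deposited matrix of ratio values, scaled by array and by probe, served as an alternative only.

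Control spots were left out, spots of a probe were averaged without 3294 flagged outlier values, and each deposited intensity was scaled to the median of the array, floored at 0.01 and put on the log2 scale. The 2 arrays of a rat were averaged. Levels were compared with limma 3.58.1 in R 4.3.3 (lmFit and eBayes with trend) over 6 groups, newborn being the mean of 4 litters, and p-values were adjusted over 41012 probes. The fit was tested on simulated data. Normexp used an offset of 50. Members and gene lists were chosen with earlier results of these data known. Members were named by these rules: genes with study primers, the 5 largest called changes each way with no overlap of rats, members well above background on no newborn array but expressed later, the 3 most different between litters, and block ends. Where a listed gene had several probes, that with the highest mean over rats was taken. The number of arrays limits the precision. The rat was the replicate, since both arrays of an adult or old rat come from 1 animal. Litters were fixed groups in the fit. The SE and p-values therefore rest on the spread of rats within groups and leave out that between litters. With litter means as replicates, 58 members were lower and 6 higher in pups than in adults, and 74 lower and 0 higher than in old rats.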

Additional observations from a re-analysis of the deposited data

Results flagged for a closer look

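Of 102 groups of rats checked for 1 rat apart from the rest (Dixon's ratio, for members named above that were above background on every array of the group, and for the number above background), 7 stood out, and chance gives about 1 in 20. Olr1356 was 0.978 in L2 rat 21, where the group's median was 1.52, and 3.02 in L3 rat 27 (median 1.36). Olr1415 was 2.54 in old rat 19 (median 4.13). Olr1369 was 0.355 in L3 rat 30 (median 0.730). Olr1425 was 16.8 in adult rat 13 (median 14.8), and Olr1383 was 0.568 in adult rat 14 (median 0.653). Olr1468 was 4.71 in adult rat 15 (median 3.87).

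Levels differed between litters for 7 members by limma's F test. The adjusted p was 0.000222 for Olr1482, 0.000336 for Olr1368, 0.00108 for Olr1468, 0.00347 for Olr1481, 0.00526 for XM_220516, 0.00649 for Olr1493 and 0.00911 for Olr1463. L1 was lowest for Olr1482, Olr1468 and Olr1481 and highest for XM_220516 and Olr1463, and L2 was lowest for Olr1493 and Olr1368.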

How the results depend on the processing

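The counts of 57 and 76 members lower in pups than in adult and old rats stayed within 1.5 times under every scaling, floor, block and test tried, except for filters and a fold threshold. With only probes expressed in every group (47 members tested) they were 31 and 38, with only probes above background on every array (38 members) 26 and 33, and with a fold of at least 5 they were 18 and 32. The 6 higher in pups than adults became 3 and 1 under those filters, 1 with the fold and 1 by the methods' t-test. The 2 higher than old rats became 1 with the 75th percentile, normexp, either other floor, the rat, slide or scan day block, the expression filter or the methods' t-test. They became 0 with litter means, within the shared scan day, with probes above background on every array or with the fold, and 4 with every array as a sample or an adjusted p under 0.05. The 26 lower in adult than old rats became 40 with normexp, 45 with every array, 42 at 0.05 and 2 with the fold. The 0 higher became 4 with the 75th percentile and with every array, 5 with normexp, 3 with the higher floor, 2 with the methods' t-test and with only both groups in the fit, and 1 with litter means and at 0.05. The 7 between litters became 0 with normexp, 4 with the floor before scaling and with only litters in the fit, 3 with the higher floor, the scan day block and both filters, 2 with the slide block and with the fold, and 18 at 0.05. The mean number above background counted by the positive and significant flag alone was 89.2 in pups, 97.8 in adults and 100.4 in old rats. Normexp brought the median change of the members to -0.16, -0.33 and -0.10. Over these alternatives the log2 changes of named members lost 50 calls, gained 42 and reversed none that was called. The causes were not tested.

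Leaving out 1 rat at a time gave 52 to 61 and 4 to 7 members lower and higher in pups than adults, 70 to 79 and 0 to 3 against old rats, 21 to 28 and 0 for adult against old, and 3 to 12 between litters. The count higher than old rats was 1 without old rat 19 and 0 without old rat 20. That between litters was 4 without L1 pup 9 or 12, 3 without 11 and 12 without L4 pup 34. The mean numbers above background were 58.2 to 59.7, 76.3 to 79.2 and 80.3 to 80.8. No paired analysis was possible because the groups share no replicate numbers. Signals near background limit low members: 11 had no array above it.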
